A study of Mus musculus with 28 samples.

Results

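The 10 genes described here were H2-Aa, H2-Ab1, H2-Eb1, H2-DMa, Cd74, Ciita, Flt3, Xcr1, Clec9a and Cd209a, chosen as named genes of MHC class II antigen presentation and of dendritic cells, out of 55891 gene identifiers in each depot table (29330 in ieWAT). All 10 were found in every table. They were followed in bulk RNA-seq of mouse adipose tissue from mice with an adipose knockout of Fgf13, named Fgf13∆Adipo, and from control mice. Fgf13 encodes a fibroblast growth factor family member that stays inside the cell. The 28 libraries, 13 knockout and 15 control, form 5 sets. The inducible knockout gave epididymal white fat (ieWAT, 3 knockout and 3 control libraries) and subcutaneous white fat (isWAT, 2 and 3). The constitutive knockout gave subcutaneous white fat (sWAT, 3 and 3) and brown fat (BAT, 2 and 3). Mice of these 4 sets, knockout and control alike, were obese after 20 weeks of high fat diet. A further epididymal set (eWAT, 3 and 3) carries the genotype labels Fgf13 KO and WT with no knockout type or diet. The sources used here do not give the driver of the knockout, the strain, the age or the sex, nor do they say that libraries came from separate animals. Each p therefore measures the spread between these libraries.

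MHC class II molecules are pairs of an α and a β chain that carry peptides from engulfed protein to the cell surface, where CD4+ T cells read them. They are made mainly by dendritic cells, B cells and activated macrophages, and the coactivator CIITA switches their genes on together. In fat, tissue macrophages and dendritic cells both lie between the adipocytes, so a bulk library holds RNA of all of them. Among the members, H2-Aa and H2-Ab1 encode the chains of I-A, and H2-Eb1 encodes the β chain of I-E. Cd74 encodes the invariant chain that fills the groove of new class II molecules, and H2-DMa a chain of the H2-DM molecule that swaps the invariant chain remnant for peptide. Flt3 encodes the receptor for the growth factor that dendritic cells need, Xcr1 and Clec9a mark type 1 conventional dendritic cells, and Cd209a is a lectin used as a marker of type 2 conventional dendritic cells and of monocyte-derived cells.

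Values are reads scaled to the library total (CPM) in ieWAT, isWAT, sWAT and BAT, where libraries held between 13490948 and 48812592 reads. They are FPKM in eWAT, where the read totals are not given. There depth was estimated at 0.63 to 0.99 of that of the first control library, from the most common ratio of low FPKM values. The estimate is rough: in eWAT knockout replicate 2 that ratio held for 203 of 3973 genes compared. A change is the knockout mean minus the control mean of log2(value + 1) with its standard error (SE), from limma fitted to all genes of a depot, with a threshold of 0.05 on the Benjamini-Hochberg adjusted p. Fgf13 itself serves to check the genotype labels. It was lower in every knockout library than in every control library in ieWAT (knockout 27.1 ± 5.61 against control 44.3 ± 6.26 CPM, SD), isWAT (knockout 33.3 ± 2.83 against control 60.3 ± 8.18), sWAT (knockout 63.2 ± 20.5 against control 109.5 ± 3.63) and BAT (knockout 1.06 ± 1.15 against control 9.07 ± 7.62). Of all genes tested, 19.4% in isWAT, 12.3% in sWAT and 38.1% in BAT were also lower in knockout without overlap. The share for ieWAT is not given here. Those 4 differences of Fgf13 did not pass the threshold (limma adjusted p 1.00, 0.179, 0.447 and 0.251 in that order). In eWAT Fgf13 stood at 23.1, 17.6 and 27.0 FPKM in libraries labelled knockout and at 20.4, 27.6 and 12.9 FPKM in control libraries. Fgf13 thus did not separate the eWAT groups, and the labels do not say which exons were removed. Those libraries are called the libraries labelled knockout throughout. In ieWAT the third control stood apart, with correlations of log2 values of 0.962 to 0.969 with the other libraries, against 0.982 to 0.993 among those others.

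Class II promoters are known for an X box, bound by the RFX complex, followed by a Y box, bound by NF-Y, and this pair is the platform that CIITA docks on. Promoter windows of 300 bases (250 before and 50 from the transcription start, RefSeq, GRCm38.p6) matched 7 of the 10 members; H2-Ab1, Cd74 and Ciita did not match. They were searched on both strands for the letters GCAAC, a core of the X box, and TGATTGG, a core of the Y box, which do not overlap each other. GCAAC occurs in 35.21% of all 32851 windows and TGATTGG in 7.82%. GCAAC followed by TGATTGG after 15 to 35 bases occurs in 67 windows, or 0.204%. Among members this pair was found in H2-Aa and H2-Eb1 and not in the windows of H2-DMa, Flt3, Xcr1, Clec9a and Cd209a. Among the other class II genes it was found in H2-Eb2, H2-Oa and H2-Ob, while H2-DMb1 and H2-DMb2 held the Y box letters alone. The 140 bases before the start are shown for 2 members and for 2 class II genes whose values over libraries differed from theirs, since all 4 carry the same module. Capitals mark the X box letters and then the Y box letters, and each is written in the direction of transcription.
H2-Aa (chr17:34287824-34287963, minus strand): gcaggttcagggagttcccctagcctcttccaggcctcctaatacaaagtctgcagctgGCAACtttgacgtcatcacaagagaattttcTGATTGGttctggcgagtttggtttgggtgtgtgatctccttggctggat
H2-Eb1 (chr17:34305727-34305866, plus strand): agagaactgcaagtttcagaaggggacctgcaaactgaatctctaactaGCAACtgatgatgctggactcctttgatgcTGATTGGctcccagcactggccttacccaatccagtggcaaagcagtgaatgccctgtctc
H2-Oa (chr17:34092239-34092378, plus strand): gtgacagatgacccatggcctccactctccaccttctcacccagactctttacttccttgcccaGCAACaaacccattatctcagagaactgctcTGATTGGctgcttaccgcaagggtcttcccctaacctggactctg
H2-Ob (chr17:34238765-34238904, plus strand): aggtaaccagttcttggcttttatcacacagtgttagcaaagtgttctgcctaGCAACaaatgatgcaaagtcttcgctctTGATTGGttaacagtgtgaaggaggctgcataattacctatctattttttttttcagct
The spacing is alike: 26 bases lie between the letters in H2-Aa, 25 in H2-Eb1, 26 in H2-Oa and 23 in H2-Ob. A match of letters describes the window and is no measurement of binding.

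**Figure D1:**
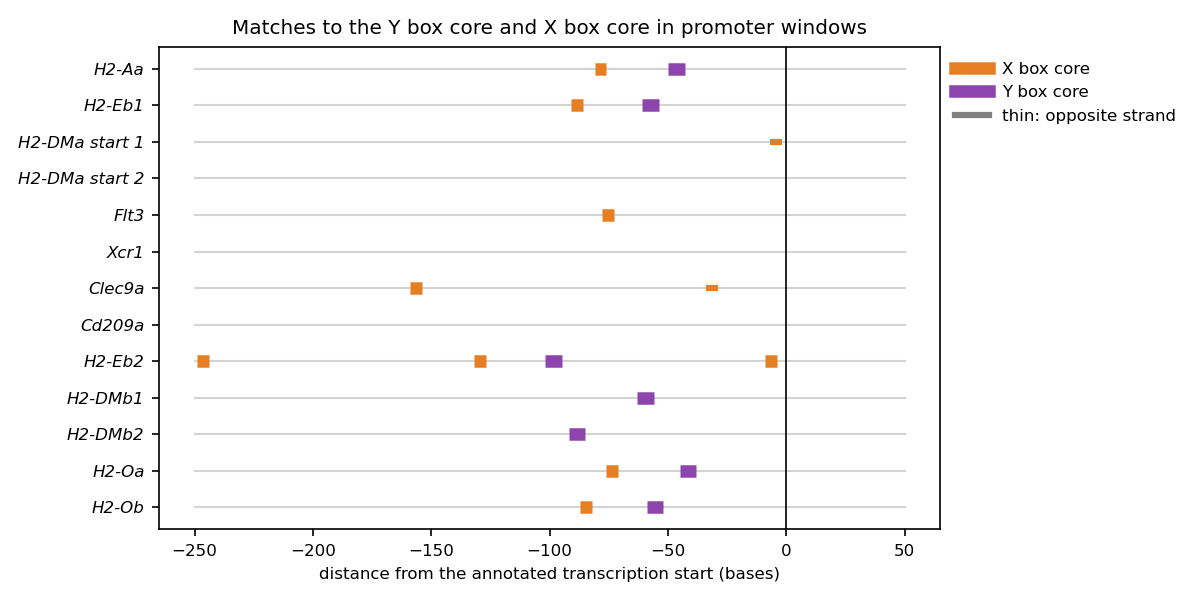
Positions of matches to the X box core (orange) and the Y box core (purple) in promoter windows, by distance from the annotated transcription start in bases; thin bars are matches on the opposite strand. The X box followed closely by the Y box stands in H2-Aa, H2-Eb1, H2-Eb2, H2-Oa and H2-Ob and in no window of the dendritic cell genes.

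H2-Aa, H2-Ab1, H2-Eb1 and H2-DMa lie on chromosome 17, Cd74 on chromosome 18, Ciita on 16, Flt3 on 5, Xcr1 on 9, Clec9a on 6 and Cd209a on 8. In control fat the class II genes kept one order over depots. H2-Aa averaged 1069 ± 296 CPM in ieWAT, 581 ± 51.0 in sWAT, 324 ± 36.5 in isWAT and 240.4 ± 139 in BAT (SD, n = 3 each). H2-Ab1, H2-Eb1, H2-DMa, Cd74 and Ciita stood in the same order. For the 5 class II genes the ranges of ieWAT, sWAT and isWAT controls did not overlap, whereas isWAT and BAT overlapped for all but H2-DMa. Ciita controls of sWAT (12.8 to 22.8 CPM) and isWAT (11.5 to 13.3 CPM) overlapped. Flt3 and Clec9a were also highest in ieWAT, at 2.97 ± 0.293 and 2.64 ± 0.834 CPM. Cd209a was ordered differently, with 4.99 ± 2.36 CPM in sWAT, 4.36 ± 0.338 in isWAT, 2.81 ± 0.311 in ieWAT and 0.855 ± 0.537 in BAT, and only its sWAT and isWAT controls overlapped. These tables were normalised separately, so levels across depots are set side by side without a test.

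**Figure D2:**
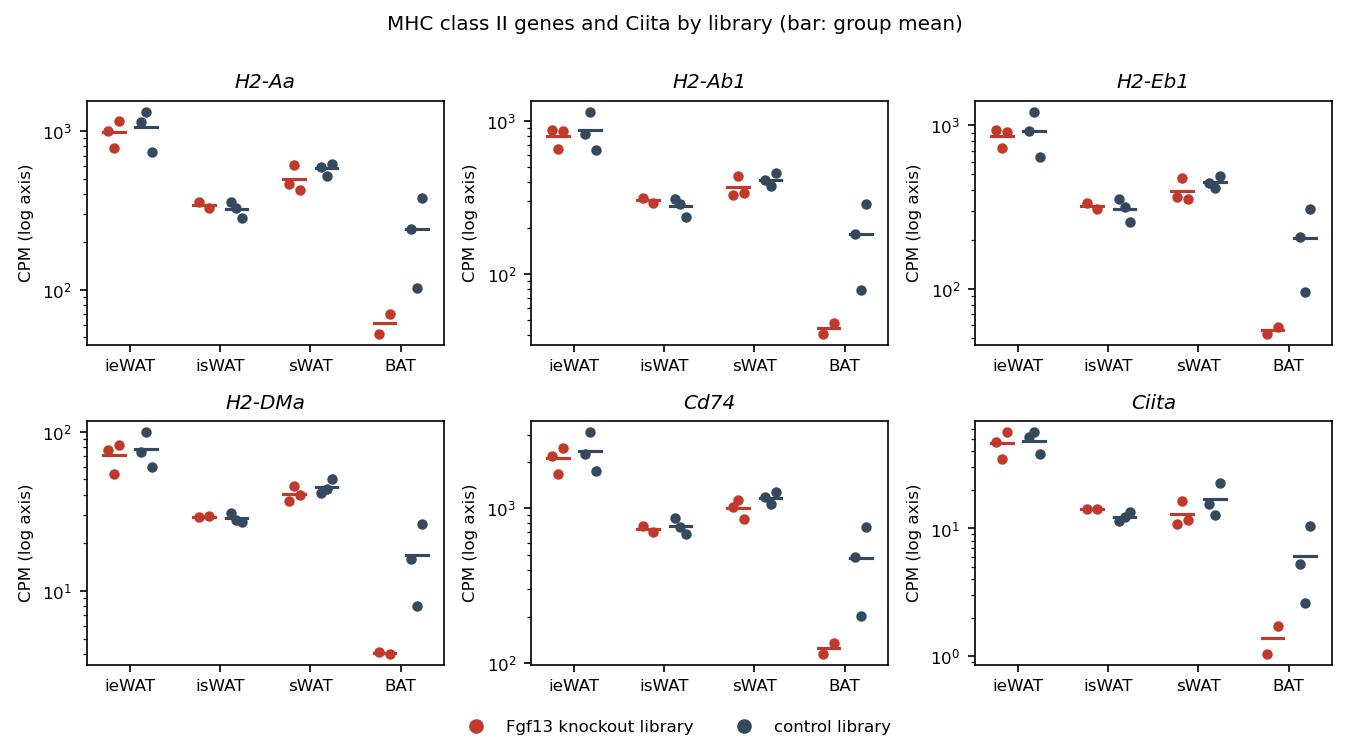
CPM on a log axis of the 5 class II genes and Ciita in each library of 4 depots, knockout (red) left of control (blue), with the group mean as a bar. The 2 BAT knockout libraries lie below the 3 BAT control libraries in every panel, while the groups overlap in ieWAT and sWAT.

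The class II genes were lowest in brown fat of knockout mice. H2-Aa had 52.7 and 70.5 CPM in knockout BAT, against 239.9, 102.0 and 379 CPM in control BAT. H2-Ab1 had 40.7 and 47.5 CPM in knockout BAT, against 182.1, 78.6 and 285 CPM in control BAT. H2-Eb1 had 53.3 and 58.1 CPM in knockout BAT, against 208.3, 96.0 and 306 CPM in control BAT. Both knockout libraries were below all 3 controls for each of these chains, and the second control lay between the knockouts and the other two controls. Cd74, the invariant chain, had 114.9 and 135.7 CPM in knockout BAT, against 484, 202.9 and 756 CPM in control BAT. H2-DMa, of the peptide exchange molecule, had 4.12 and 4.01 CPM in knockout BAT, against 15.9, 8.03 and 26.3 CPM in control BAT. Ciita, the coactivator, had 1.05 and 1.74 CPM (17 and 26 reads) in knockout BAT, against 5.27, 2.63 and 10.4 CPM (112, 42 and 199 reads) in control BAT.

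All 6 members tested in BAT were thus lower in knockout without overlap, where 38.1% of the 13253 genes tested were. Their log2 changes were -1.77 (SE 0.62) for H2-Aa, -1.84 (SE 0.60) for H2-Ab1, -1.70 (SE 0.53) for H2-Eb1, -1.67 (SE 0.47) for H2-DMa, -1.74 (SE 0.61) for Cd74 and -1.43 (SE 0.50) for Ciita. With limma none of the 6 passed the threshold (adjusted p 0.237 to 0.253), all 6 had an unadjusted p under 0.05 as did 19.2% of all genes, and 0.00755% of all genes passed the threshold. On whole reads recovered from the CPM, edgeR called 0 members. DESeq2 called the same 6 lower with adjusted p between 0.00143 and 0.0490, among 691 genes called of 23757. Leaving out the second control, the one nearest the knockouts, also brought all 6 past the threshold in limma, among 2079 of the 13253 genes tested. Without the first or the third control 0 of the 6 passed. The median change of the members was -2.21 without the second control, -1.64 without the first and -1.33 without the third. It was -1.63 without knockout replicate 1 and -1.81 without knockout replicate 2. With all libraries the median change of the 6 members was -1.72, against -0.18 over all genes tested. Rescaling by TMM factors set the median of the members at -1.52 and that of all genes at 0.00.

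Macrophage markers were lower in the same libraries. The 9 macrophage genes summed to 96.4 to 103 CPM in knockout BAT and 212 to 808 CPM in control BAT. All 9 were lower in value and 8 without overlap, where 38.1% of all genes tested were. In limma 0 passed the threshold, and none was at 0. Adgre1, which encodes the macrophage antigen F4/80, had 6.21 and 6.22 CPM in knockout BAT, against 81.6, 15.9 and 81.4 CPM in control BAT, and its change of -2.75 was larger than that of any class II gene. Irf8, a transcription factor of monocytes and dendritic cells, had 3.14 and 3.21 CPM in knockout BAT, against 11.4, 5.08 and 17.3 CPM in control BAT. Adipocyte markers overlapped as a sum, at 7785 to 8757 CPM in knockout BAT and 7865 to 10281 CPM in control BAT. Singly, 4 of 5 were lower in value and 1 without overlap, where 38.1% of all genes tested were. In limma 0 of them passed the threshold. Their median change was -0.15, beside -0.18 over all genes tested, with Lep at -1.36 (limma adjusted p 0.312). The part of the macrophage difference in the class II values was not tested. In bulk libraries, fewer cells of a type and less RNA per cell cannot be told apart.

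Of the other class II genes in BAT, H2-DMb1, the partner chain of H2-DMa, averaged 4.75 CPM in knockout and 22.4 CPM in control libraries (log2 change -1.77, SE 0.70, limma adjusted p 0.270). H2-DMb1 and H2-DMb2 share 31.4% and 29.7% of their 31-base words with each other, so reads may be split between them, whereas members share at most 4.6% of theirs with any gene. Antigen processing genes were lower in value in 10 of 10 cases and 8 without overlap, where 38.1% of all genes tested were, with 0 past the threshold. Among them Ctss, the protease that trims the invariant chain, had 12.9 and 9.70 CPM in knockout BAT, against 93.9, 28.4 and 189.2 CPM in control BAT. Of 12 class I presentation genes, 12 were lower in value and 10 without overlap, again beside 38.1% of all genes, with 0 past the threshold in limma. Their median change of -0.76 was smaller than that of the class II members, beside -0.18 over all genes tested.

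In the white depots with a known diet the 5 class II members and Ciita did not pass the threshold. In ieWAT, H2-Aa had 1004, 784 and 1164 CPM in knockout, against 1146, 1319 and 743 CPM in control libraries. The groups overlapped, as they did for H2-Ab1, H2-Eb1, H2-DMa, Cd74 and Ciita, whose changes lay between -0.15 and -0.06 with SE 0.21 to 0.25. In isWAT, H2-Aa had 355 and 326 CPM in knockout, against 357, 329 and 285 CPM in control libraries. The changes of the 5 class II genes there ran between -0.06 and 0.14 with SE 0.09 to 0.13, and their groups overlapped. In sWAT, H2-Aa had 463, 607 and 423 CPM in knockout, against 597, 524 and 623 CPM in control libraries. All 5 class II genes were lower in value in sWAT, by -0.24 to -0.14 with SE 0.11 to 0.14, and again the groups overlapped. Of all members, limma called 0 of 10 in ieWAT, 0 of 8 tested in isWAT and 0 of 10 in sWAT, against 0%, 0.00701% and 0.0217% of all genes. At an unadjusted p under 0.05 the counts were 0, 0 and 1, against 2.62%, 13.1% and 9.66% of all genes, and edgeR and DESeq2 called 0 in each. The median change of the members was -0.07 in ieWAT, 0.07 in isWAT and -0.16 in sWAT, beside 0.02, -0.03 and -0.05 over all genes tested. Without the third ieWAT control, the library that stood apart, the changes of the 5 class II genes in ieWAT lay between -0.35 and -0.29 and that of Ciita at -0.24, with 0 of 10 members past the threshold. The sign is not fixed: for the 5 class II genes and Ciita in ieWAT it turns without knockout replicate 2 or without control replicate 2.

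**Figure D3:**
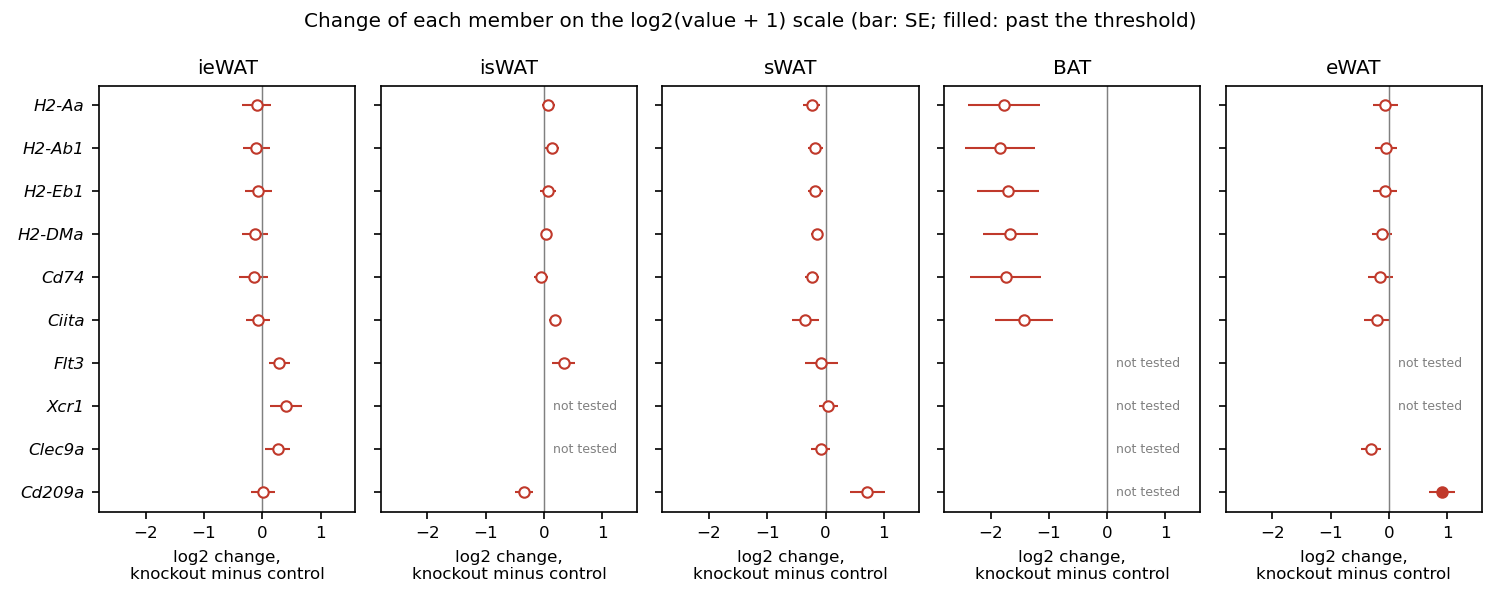
Log2 change of each member, knockout minus control, with its SE as a bar, in 5 depots. Filled points passed the threshold, which Cd209a in eWAT alone did; the 6 members tested in BAT lie between -1.84 and -1.43.

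In eWAT the class II genes overlapped as well. H2-Aa had 1124, 1013 and 869 FPKM in libraries labelled knockout, against 1365, 1059 and 776 FPKM in control libraries. H2-Eb1 had 834, 765 and 654 FPKM in libraries labelled knockout, against 1017, 784 and 594 FPKM in control libraries. Cd74 had 2125, 1722 and 1581 FPKM in libraries labelled knockout, against 2610, 1951 and 1548 FPKM in control libraries. Changes of the 5 class II genes ran between -0.15 and -0.05 (SE 0.17 to 0.22, limma adjusted p 0.662 to 0.882), while 14.9% of all 13736 genes tested passed the threshold, 10.2% higher and 4.7% lower in libraries labelled knockout. These 2041 genes were 10 without knockout replicate 3, 1206 without knockout replicate 1, 926 without knockout replicate 2, 613 without control replicate 2, 1173 without control replicate 3, 544 with no filter on low values and 1 in the TPM table described next. The eWAT calls given below depend on these choices. A second deposited table of the same 6 libraries, in TPM, gives H2-Aa a difference of 1.69 (SE 1.73) and H2-Eb1 one of 2.66 (SE 1.73). Its columns correlate with one another at 0.689 to 0.964, against 0.979 to 0.994 in the FPKM table.

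Macrophage genes fell in 6 of 9 cases in eWAT, where 4.7% of all genes fell, given as the mean in libraries labelled knockout against that in control libraries. Among them were Adgre1 (213 against 339 FPKM, change -0.66, SE 0.16), C1qc (563 against 913 FPKM, -0.70, SE 0.11) and Mertk (9.27 against 16.0 FPKM, -0.72, SE 0.10), with limma adjusted p of 0.0391, 0.0133 and 0.0122. The list summed to 2870 to 3352 FPKM in libraries labelled knockout and 4519 to 5043 FPKM in control libraries. Adipocyte markers rose in 5 of 5 cases, where 10.2% of all genes rose and where 0 of 5 did without knockout replicate 3, and summed to 15077 to 19307 FPKM in libraries labelled knockout and 6487 to 8223 FPKM in control libraries. Adgre1 stood at 0.197 to 0.221 of H2-Aa in libraries labelled knockout and at 0.269 to 0.356 of it in control libraries. The macrophage count was 3 of 9 with no filter on low values, 0 of 9 in the TPM table and 0 to 7 with 1 library left out: it was 0 without knockout replicate 3, 1 without control replicate 2 and 3 without knockout replicate 2.

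Genes that act before and after the class II chains were followed from lists of their function. Of the 8 transcription factors of the class II promoter, 1 fell in eWAT, where 4.7% of all genes did, and 0 without knockout replicate 2 or 3 or control replicate 2 or 3: Nfya, a subunit of NF-Y, had 29.4, 22.7 and 25.9 FPKM in libraries labelled knockout, against 33.1, 40.9 and 41.7 FPKM in control libraries (change -0.55, SE 0.13, limma adjusted p 0.0366). Of 10 antigen processing genes in eWAT, 3 fell, where 4.7% of all genes did. The count was 1 with no filter on low values and 0 in the TPM table. With 1 library left out it was 0 without knockout replicate 3, 1 without knockout replicate 1 or 2 or control replicate 2, and 5 without control replicate 1. Ctsh, a cathepsin, averaged 135.3 FPKM in libraries labelled knockout and 221.6 FPKM in control libraries (adjusted p 0.0318). Lgmn, the protease legumain, averaged 391 FPKM in libraries labelled knockout and 593 FPKM in control libraries (adjusted p 0.0354). March1, the ubiquitin ligase that removes class II from the surface, had 9.61, 8.31 and 9.94 FPKM in libraries labelled knockout, against 17.8, 15.6 and 14.4 FPKM in control libraries (change -0.72, SE 0.11, adjusted p 0.0128). Without overlap 8 of the 10 were lower, where 19.6% of all genes were. In isWAT 10 of 10 antigen processing genes were higher in value, 5 without overlap against 12.2% of all genes, and in sWAT 10 of 10 were lower in value, 2 without overlap against 12.3%. None passed the threshold in limma in isWAT or sWAT. At an unadjusted limma p under 0.05 the counts were 4 and 2 of 10, against 13.1% and 9.66% of all genes.

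Outside BAT the coactivator Ciita showed smaller differences. In isWAT it had 14.2 and 14.2 CPM in knockout, against 11.5, 12.2 and 13.3 CPM in control libraries. The knockout libraries were higher without overlap, as were 12.2% of all genes, with a change of 0.19 (SE 0.10, limma adjusted p 0.469). In sWAT it had 10.9, 16.3 and 11.7 CPM in knockout, against 15.4, 12.8 and 22.8 CPM in control libraries (change -0.35, SE 0.23, adjusted p 0.630), and the groups overlapped. In eWAT it had 11.9, 8.21 and 7.89 FPKM in libraries labelled knockout, against 14.0, 11.0 and 8.01 FPKM in control libraries (change -0.20, SE 0.22, adjusted p 0.547).

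Across libraries the structural class II genes kept nearly fixed proportions. Over the 22 CPM libraries the reads of H2-Ab1 were 0.674 to 0.891 of those of H2-Aa, and those of H2-Eb1 were 0.739 to 1.01 of them. Cd74 had 1.86 to 2.44 and H2-DMa 0.0569 to 0.0948 times the reads of H2-Aa. Highest over lowest, these ratios spanned 1.32-fold for H2-Ab1 and Cd74, 1.37-fold for H2-Eb1 and 1.67-fold for H2-DMa. The ratio of Ciita to H2-Aa spanned 2.59-fold, from 0.0198 to 0.0514, and that of Adgre1 to H2-Aa 6.36-fold, from 0.0882 to 0.561. These are ratios of reads not adjusted for gene length, so they compare libraries and not the abundance of one gene with another. In knockout BAT, where the level of H2-Aa was lowest, Cd74 stood at 1.93 to 2.18 of H2-Aa, against 1.99 to 2.02 in control BAT. Adgre1 stood at 0.0882 to 0.118 of H2-Aa in knockout BAT and at 0.156 to 0.340 of it in control BAT. The deviations from the group mean correlated between pairs of the 5 class II genes at r = 0.94 to 0.99 over 22 libraries that share depot tables and depths.

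The genes with the most similar pattern were sought among 11776 genes tested in all 4 CPM depots. The measure was the correlation of each gene's deviation from its group mean with the mean deviation of the 5 class II genes over 22 libraries. Ctsh came first at r = 0.94, followed by Emilin1, Tmed9, Selenon, Tmem229b, Ttyh3, Vsir, Hcls1, Arpc1b and Themis2, the last at r = 0.91. The 2 libraries farthest from the median were BAT controls 2 and 3. Without them r was 0.82 for Ctsh and between 0.70 and 0.82 for the 10 genes. Several list means were about equally alike: r was 0.85 for macrophage genes, 0.85 for interferon gamma inputs of Ciita, 0.84 for class I presentation, 0.84 for type 2 dendritic cell genes and 0.83 for antigen processing. Without the same 2 libraries these were 0.65, 0.58, 0.42, 0.61 and 0.62 in that order.

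The less common class II genes H2-Oa, H2-Ob, H2-Eb2 and H2-DMb2 did not keep step with H2-Aa. H2-Oa and H2-Ob encode H2-DO, the inhibitor of H2-DM that is known from B cells. In ieWAT H2-Oa had 5.20, 3.75 and 5.80 CPM in knockout, against 3.32, 1.68 and 1.15 CPM in control libraries. The knockout libraries were higher without overlap, as they were for H2-Eb2 and for 3.43% of all genes; the changes were 1.00 (SE 0.28) for H2-Oa and 1.09 (SE 0.29) for H2-Eb2, with limma adjusted p of 1.00. Without the third ieWAT control they were 0.78 for H2-Oa and 0.90 for H2-Eb2. B cell markers were on the same side: 8 of 8 were higher in value, 1 without overlap and 0 past the threshold, and they summed to 58.8 to 127.0 CPM in knockout and 11.9 to 77.0 CPM in control libraries. None was at 0. At an unadjusted limma p under 0.05 there were 5 of the 8, against 2.62% of all genes. Cd79a, a chain of the B cell receptor complex, had 40.7, 16.3 and 33.4 CPM in knockout ieWAT, against 19.8, 4.63 and 1.96 CPM in control ieWAT. In sWAT the third control stood apart for H2-Oa (0.754 to 1.08 CPM in knockout, against 1.08, 1.11 and 6.55 CPM in control libraries) and for Cd79a (1.45 to 5.03 CPM in knockout, against 8.99, 3.11 and 48.8 CPM in control libraries). In eWAT the first control did, with H2-Oa at 1.17, 2.10 and 1.58 FPKM in libraries labelled knockout, against 10.4, 0.861 and 1.59 FPKM in control libraries. The ratio of H2-DMb2 to H2-DMb1 was highest in those same controls and reached 0.264 in sWAT and 0.216 in eWAT. The part of B cell RNA in these values was not tested. H2-Aa, by contrast, was 623 CPM in the third sWAT control and 597 and 524 CPM in the other sWAT controls.

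**Figure D4:**
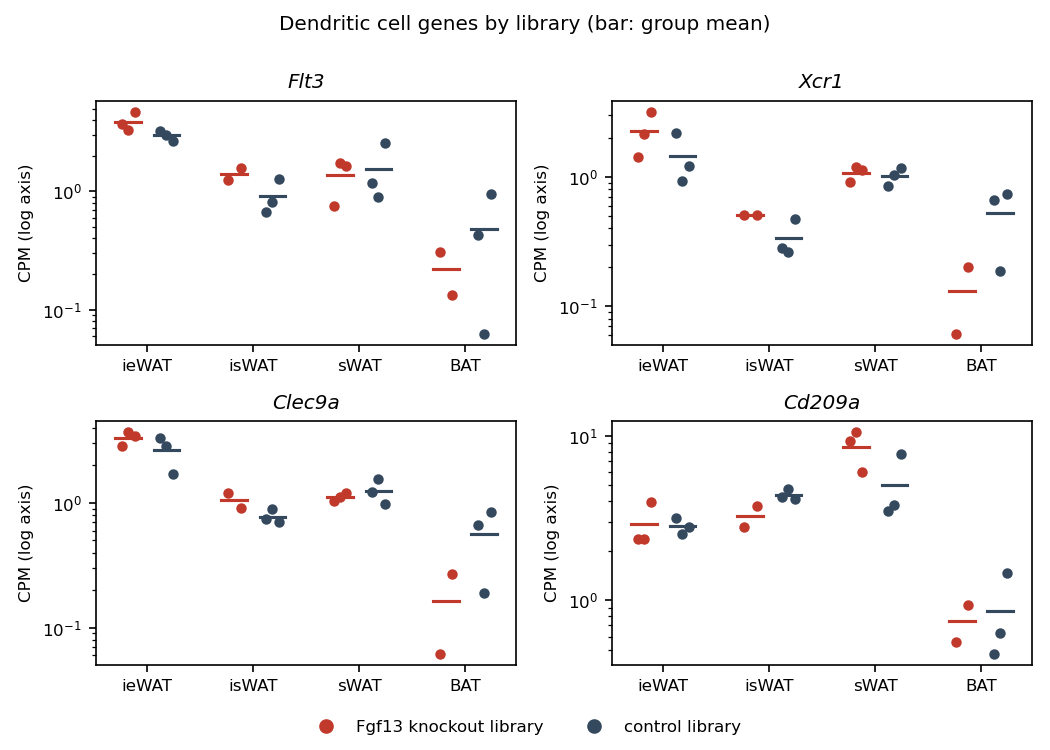
CPM on a log axis of Flt3, Xcr1, Clec9a and Cd209a in each library of 4 depots, knockout (red) left of control (blue), with the group mean as a bar. Knockout Flt3 is above control in ieWAT, and Cd209a is below control in isWAT with the groups apart.

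The dendritic cell genes were scarce, with 1 to 204 reads per library in the CPM depots. Flt3, the growth factor receptor, had 3.69, 3.28 and 4.68 CPM in knockout ieWAT, against 3.24, 3.01 and 2.66 CPM in control ieWAT. Knockout libraries were higher without overlap, as were 3.43% of all genes, by 0.29 (SE 0.18, limma adjusted p 1.00). Its ligand gene Flt3l was also higher without overlap in ieWAT, at 14.9 CPM in knockout and 10.5 CPM in control libraries (change 0.46, SE 0.15, adjusted p 1.00). Without the third ieWAT control the changes were 0.23 for Flt3 and 0.47 for Flt3l. T cell and B cell markers were higher in value there too, 7 of 7 and 8 of 8. Without overlap 3 and 1 were higher, beside 3.43% of all genes. At an unadjusted limma p under 0.05 the counts were 4 and 5, against 2.62% of all genes, and 0 passed the threshold. The T cell list summed to 39.3 to 51.6 CPM in knockout and 15.9 to 45.4 CPM in control libraries. The part of T cell and B cell RNA in the Flt3 values was not tested. In isWAT Flt3 had 1.25 and 1.56 CPM in knockout, against 0.668, 0.808 and 1.27 CPM in control libraries, which overlapped (change 0.34, SE 0.19, adjusted p 0.480). In sWAT it had 0.757, 1.74 and 1.63 CPM in knockout, against 1.18, 0.889 and 2.57 CPM in control libraries, also overlapping. In eWAT, where it was below the filter, Flt3 had 0.805, 1.03 and 0.879 FPKM in libraries labelled knockout, against 1.57, 0.808 and 0.936 FPKM in control libraries.

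Xcr1, the chemokine receptor of type 1 dendritic cells, had 1.42, 2.14 and 3.16 CPM in knockout ieWAT, against 2.19, 0.921 and 1.21 CPM in control ieWAT (change 0.41, SE 0.27, limma adjusted p 1.00). Clec9a, the receptor by which those cells sense dead cells, had 2.85, 3.68 and 3.42 CPM in knockout ieWAT, against 3.34, 2.87 and 1.72 CPM in control ieWAT (change 0.27, SE 0.22, adjusted p 1.00). Both overlapped in ieWAT, and without the third control the changes were 0.35 for Xcr1 and 0.07 for Clec9a. In sWAT Xcr1 had 0.920, 1.19 and 1.13 CPM in knockout, against 0.847, 1.04 and 1.16 CPM in control libraries, and Clec9a 1.03, 1.12 and 1.19 CPM in knockout, against 1.22, 1.56 and 0.979 CPM in control libraries. The sWAT groups overlapped for both genes. In isWAT both were below the filter and higher in knockout without overlap, as were 12.2% of the genes that passed it: Xcr1 had 0.504 and 0.504 CPM (19 and 21 reads) in knockout, against 0.283, 0.261 and 0.471 CPM (11, 10 and 23 reads) in control libraries. Clec9a had 1.19 and 0.913 CPM in knockout isWAT, against 0.745, 0.886 and 0.697 CPM in control isWAT. In eWAT Clec9a had 1.20, 1.57 and 1.09 FPKM in libraries labelled knockout, against 2.37, 1.80 and 1.36 FPKM in control libraries (change -0.31, SE 0.17, adjusted p 0.241). In eWAT Xcr1, below the filter, had 0.523, 0.444 and 0.415 FPKM in libraries labelled knockout, against 0.699, 0.575 and 0.407 FPKM in control libraries. Of the type 1 list, 2 of 6 genes tested fell in eWAT, where 4.7% of all genes did, and 0 fell with no filter, in the TPM table or without knockout replicate 2 or 3 or control replicate 2, and 1 without knockout replicate 1. Cadm1, an adhesion molecule, averaged 29.4 FPKM in libraries labelled knockout and 45.8 FPKM in control libraries (adjusted p 0.0379). Wdfy4, needed for cross-presentation, averaged 13.1 FPKM in libraries labelled knockout and 20.1 FPKM in control libraries (limma adjusted p 0.0268).

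In BAT the 4 dendritic cell members were below the filter and near the limit of counting. Xcr1 had 1 and 3 reads in knockout BAT, against 14, 3 and 14 reads in control BAT. Clec9a had 1 and 4 reads in knockout BAT, against 14, 3 and 16 reads in control BAT. Flt3 had 5 and 2 reads in knockout BAT, against 9, 1 and 18 reads in control BAT, and Cd209a 9 and 14 reads in knockout BAT, against 10, 10 and 28 reads in control BAT. All 4 overlapped, and the main fit did not test them. Control means were 4.02 times knockout means for Xcr1, 3.42 for Clec9a, 2.16 for Flt3 and 1.15 for Cd209a. Of list genes that passed the filter in BAT, 5 of 6 type 1 genes were lower in value, 5 without overlap. So were 6 of 6 type 2 genes, 5 without overlap, and 5 of 5 mature dendritic cell genes, all without overlap. Of 3 shared and 2 plasmacytoid genes, 2 and 1 were lower, 0 and 1 without overlap. None passed the threshold in limma, and 38.1% of all genes were lower without overlap. Zbtb46, a transcription factor of dendritic cells that endothelium also makes, averaged 15.1 CPM in knockout BAT and 15.6 CPM in control BAT (change -0.04, SE 0.17, limma adjusted p 0.899). Batf3, needed for type 1 dendritic cells, had 0.369 and 0.401 CPM in knockout BAT, against 2.54, 0.502 and 1.99 CPM in control BAT (adjusted p 0.276).

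Cd209a was the 1 member of 8 tested that passed the threshold in eWAT, a share of the members no larger than the 14.9% of all genes that did. It rose to 6.50, 3.69 and 7.28 FPKM in libraries labelled knockout, against 2.18, 2.73 and 2.63 FPKM in control libraries. Every library labelled knockout was above every control, as for 21.6% of all genes, with a change of 0.92 (SE 0.22, limma adjusted p 0.0384). The call rests on every control and on knockout replicates 1 and 3: without one of these libraries the change stayed between 0.76 and 0.96 and the adjusted p between 0.0735 and 0.126. With no filter on low values the adjusted p was 0.102, and in the TPM table the difference was 1.66 (adjusted p 0.917).

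The other Cd209 genes encode lectins of the same family. Of 6 family genes tested in eWAT, 5 rose, Cd209a included, where 10.2% of all genes rose, and 6 were higher without overlap, where 21.6% of all genes were. Cd209d had 15.9, 8.28 and 18.0 FPKM in libraries labelled knockout, against 1.94, 3.18 and 1.54 FPKM in control libraries (change 2.19, SE 0.31, limma adjusted p 0.0127). Cd209f had 25.4, 16.8 and 37.5 FPKM in libraries labelled knockout, against 9.36, 13.6 and 8.30 FPKM in control libraries (change 1.23, SE 0.30, adjusted p 0.0448). As means of libraries labelled knockout against those of control libraries, Cd209b stood at 3.47 against 1.00 FPKM (adjusted p 0.0460) and Cd209g at 8.85 against 3.80 FPKM (adjusted p 0.0435), while Cd209c, at 1.36 against 0.588 FPKM, had an adjusted p of 0.0561. Cd209f and Cd209g share 36.3% and 20.1% of their 31-base words with each other, so reads between them may be split, whereas Cd209a and Cd209d share none. The family count was 1 with no filter on low values, 0 in the TPM table, and 0 to 5 with 1 library left out: 0 without knockout replicate 3, 1 without knockout replicate 1 and 1 without control replicate 1, 2 or 3.

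**Figure D5:**
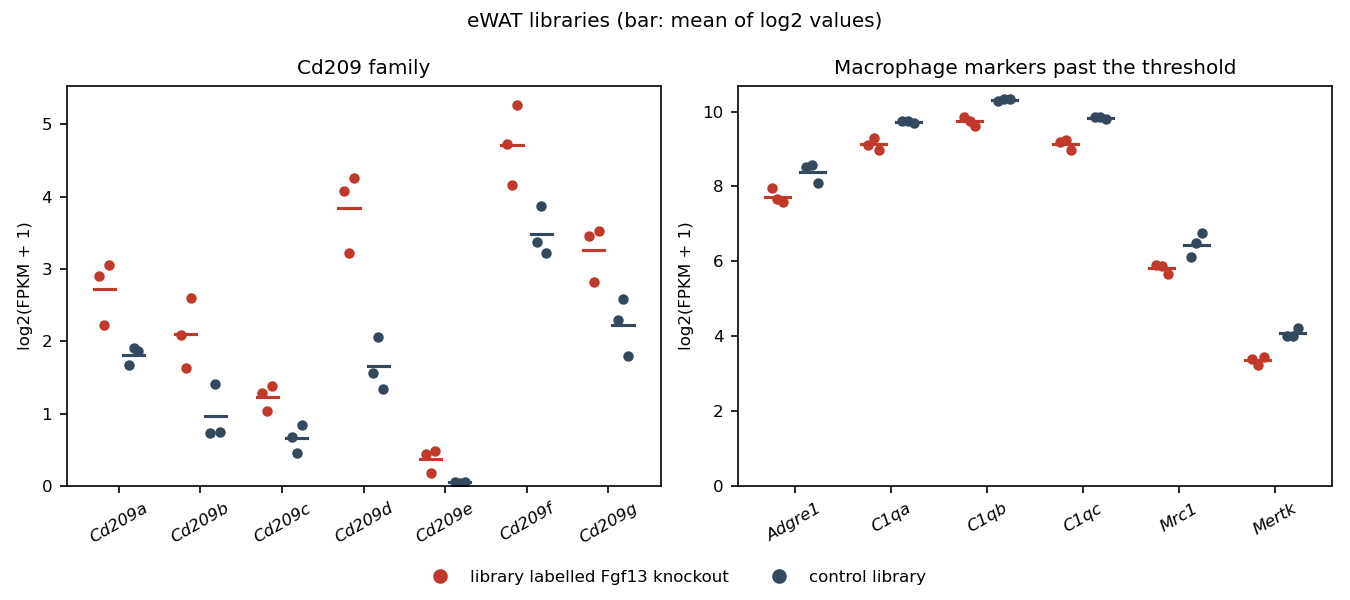
Log2(FPKM + 1) of the Cd209 family and of the 6 macrophage markers past the threshold in the 6 eWAT libraries, with the mean as a bar and libraries labelled knockout (red) left of control (blue). The Cd209 genes lie higher and the macrophage markers lower in the libraries labelled knockout.

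Other markers used with Cd209a differed in direction in eWAT. Mgl2, a lectin of type 2 dendritic cells and of some macrophages, had 33.1, 11.9 and 25.8 FPKM in libraries labelled knockout, against 6.96, 9.01 and 7.82 FPKM in control libraries (change 1.36, SE 0.35, limma adjusted p 0.0514). Sirpa, a surface receptor of type 2 dendritic cells and macrophages, fell to 194.7 FPKM in libraries labelled knockout, against 288.6 FPKM in control libraries (adjusted p 0.0417). Itgax, which encodes CD11c, had 122.3, 74.5 and 108.1 FPKM in libraries labelled knockout, against 120.8, 194.0 and 204 FPKM in control libraries (change -0.75, SE 0.26, adjusted p 0.0945). Kit, a receptor of early progenitors and mast cells listed with the shared dendritic cell genes, fell to 4.47 FPKM in libraries labelled knockout, against 15.4 FPKM in control libraries (adjusted p 0.0183). Of the type 2 list, 1 of 7 genes tested rose, which is Cd209a itself, and 1 fell, which is Sirpa, where 10.2% of all genes rose and 4.7% fell.

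In the other depots Cd209a did not pass the threshold. In sWAT it had 9.31, 10.5 and 5.97 CPM in knockout, against 3.48, 3.78 and 7.71 CPM in control libraries, with the third knockout below the third control (change 0.71, SE 0.30, limma adjusted p 0.514). Mgl2 in sWAT had 73.2, 54.4 and 66.4 CPM in knockout, against 31.4, 40.6 and 41.9 CPM in control libraries (change 0.75, SE 0.14, adjusted p 0.447). Cd209d in sWAT had 15.9, 15.4 and 17.2 CPM in knockout, against 7.34, 9.12 and 10.4 CPM in control libraries (change 0.80, SE 0.13, adjusted p 0.352). Both were higher without overlap, as were Cd209g and 3.8% of all genes. Itgax was instead lower without overlap, as were 12.3% of all genes. It had 18.8, 38.9 and 35.3 CPM in knockout, against 59.3, 71.7 and 54.6 CPM in control libraries (change -1.03, limma adjusted p 0.447). In isWAT Cd209a had 2.79 and 3.75 CPM in knockout, against 4.24, 4.74 and 4.10 CPM in control libraries, lower without overlap as for 19.4% of all genes (change -0.34, SE 0.15, adjusted p 0.402). In ieWAT it had 2.35, 2.34 and 3.97 CPM in knockout, against 3.14, 2.52 and 2.78 CPM in control libraries, with a change of 0.01 (SE 0.21), and of 0.00124 without the third control. The Cd209 family as a whole differed in direction between depots. Of the family genes tested, 6 of 7 were higher in value in sWAT. By contrast 5 of 6 were lower in ieWAT, 6 of 6 in isWAT and 2 of 3 in BAT. Median changes of the family were 0.50 in sWAT, -0.65 in ieWAT, -0.31 in isWAT and -0.29 in BAT. Over all genes tested they were -0.05, 0.02, -0.03 and -0.18 in that order. In these depots 0 family genes passed the threshold in limma.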

How the data were processed

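Bulk RNA-seq of mouse fat was deposited as 7 tables. Salmon, FastQC, MultiQC and DESeq2 1.38.3 are named in the submitters' processing notes without roles; the sources used here give no aligner, genome build or annotation. The deposited ieWAT, isWAT, sWAT and BAT values, although named FPKM by the authors, are CPM: each column sums to 1000000, and 100.0% of values were whole multiples of 1 read (tolerance 0.01 reads). The deposited eWAT values are FPKM. A further deposited table, of raw counts by its name, gives TPM of those 6 eWAT libraries and served as an alternative; the seventh is that table rescaled and was not used. Gene symbols were matched by Ensembl identifier for 92.0% of identifiers (96.0% in ieWAT).

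Each depot was fitted alone with limma 3.58.1 (R 4.3.3; eBayes with trend and robust, two-sided) on log2(value + 1), over genes that reached a value of 1 in at least the number of libraries of the smaller group. P-values were adjusted by Benjamini-Hochberg over all genes tested (ieWAT 14749, isWAT 14258, sWAT 13816, BAT 13253, eWAT 13736). Recovered reads were also tested with edgeR 4.0.16 and DESeq2 1.42.0. The fit was tested on simulated data. Alternatives were other pseudocounts (0.5 and 0.1), no filter, other scalings, plain eBayes, the TPM table, the replicate number as a block and each library left out. Promoter and motif windows came from RefSeq on GRCm38.p6. Shared 31-base words were counted in GENCODE M21 transcripts, a release that may differ from the authors' annotation. Eligible names were all 10 members, list genes past the threshold, up to 4 others per list and depot by unadjusted p, the 10 genes most like the class II genes, and Fgf13. Adgre1, Cd209c, Zbtb46, Batf3, Irf8, H2-DMb1, Cd79a and Flt3l, where outside that rule, were named after their values were seen. The members and gene lists were chosen with earlier results of these data known. The labels give no batch.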

Additional observations from a re-analysis of the deposited data

Results flagged for a closer look

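Every result here is a gene whose knockout libraries lay wholly above the controls in one depot and wholly below them in another. In no case was the difference between depots itself tested, and the depots come from separate tables. With 2 knockout libraries against 3 controls or 3 against 3 such separations also arise among genes at large in the shares given in the report. The share of ieWAT genes lower without overlap, the case of Mgl2, is not among them. Ciita changed by 0.188 in isWAT and by -1.43 in BAT (log2, knockout minus control), and H2-DMb1 by 0.204 in isWAT and -1.77 in BAT. Cd209a changed by -0.337 in isWAT and by 0.918 in eWAT. Mgl2 had -0.413 in ieWAT, -0.557 in isWAT and -0.988 in BAT, but 0.752 in sWAT and 1.36 in eWAT. H2-Oa had 1.00 in ieWAT and -0.734 in sWAT. Ctss had 0.657 in isWAT, but -0.793 in sWAT, -2.73 in BAT and -0.80 in eWAT, and Itgax 0.513 in isWAT, but -1.03 in sWAT and -2.70 in BAT. Of these values, that of Cd209a in eWAT alone passed the threshold (limma adjusted p 0.0384). Some rest on 1 library: H2-Oa in sWAT was -0.118 without control replicate 3, Ctss in sWAT -0.421 without knockout replicate 1, Cd209a in isWAT -0.173 without knockout replicate 1, H2-DMb1 in isWAT 0.107 without knockout replicate 2 and Itgax in isWAT 0.33 without control replicate 1. No group was large enough for a gap test of its highest or lowest library.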

How the results depend on the processing

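The number of members past the threshold stayed at 0 in ieWAT, isWAT and sWAT under all alternatives. In BAT it was 6 with DESeq2 and 0 to 6 with 1 library left out. In eWAT it was 0 with no filter and 0 in the TPM table, and 0 to 1 with 1 library left out. The Cd209 family count in eWAT was 1 with no filter, 0 in the TPM table and 0 to 5 with 1 library left out, and the macrophage count 3, 0 and 0 to 7; these counts, and the changes of single list genes with 1 library left out, were added after seeing the data. Whether the replicate numbers pair the libraries is not known. Same-numbered deviations correlated at -0.561 to 0.39 and in no depot were all above 0.1. Deviations from means of 2 or 3 libraries sum to 0 within each group, so these correlations cannot decide it. With the replicate block the eWAT counts were 0 for members, the Cd209 family, macrophage genes and all genes. In isWAT and BAT no knockout library has replicate number 3, so the block fit draws its change from replicates 1 and 2 alone. In isWAT it therefore equals the change without control replicate 3, with turned signs for H2-Aa (-0.0115), H2-Eb1 (-0.0509) and H2-DMa (-0.00625). In the TPM table eWAT changes turned sign for H2-Aa (1.69), H2-Eb1 (2.66), H2-DMa (0.78), Ciita (2.23) and Clec9a (0.134). Cd209a in ieWAT was -0.00025 with a pseudocount of 0.1 and -0.00371 after TMM rescaling. Changes that turned sign when 1 library was left out ranged, in ieWAT, over -0.339 to 0.0745 for H2-Aa, -0.296 to 0.119 for H2-Ab1, -0.305 to 0.153 for H2-Eb1, -0.291 to 0.0683 for H2-DMa, -0.347 to 0.0669 for Cd74, -0.239 to 0.104 for Ciita and -0.183 to 0.102 for Cd209a. In isWAT they ranged over -0.0115 to 0.151 for H2-Aa, -0.0509 to 0.172 for H2-Eb1, -0.00625 to 0.088 for H2-DMa and -0.143 to 0.0354 for Cd74. In sWAT they ranged over -0.257 to 0.202 for Flt3, -0.0161 to 0.102 for Xcr1 and -0.175 to 0.00952 for Clec9a. In eWAT they ranged over -0.27 to 0.137 for H2-Aa, -0.207 to 0.124 for H2-Ab1, -0.257 to 0.13 for H2-Eb1, -0.248 to 0.0222 for H2-DMa and -0.33 to 0.0467 for Cd74. The cause was not tested. Where isWAT or BAT lost a knockout library, the remaining one was assumed to vary like the others. Of 328 values under settings other than leaving 1 library out, 309 kept their direction and side of the threshold. Of the rest, 10 turned sign, 6 gained and 3 lost the threshold. Read numbers limit Flt3, Xcr1, Clec9a and Cd209a in BAT, where 1 to 28 reads were counted per library.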
